A study of Mus musculus with 6 samples.

Results

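The genes examined here encode the proteins with which a cell exports drugs, makes and uses glutathione, and oxidises, reduces, conjugates or detoxifies reactive compounds. They were taken by symbol, as ABC transporters, glutathione enzymes, peroxidases, thioredoxins, the NRF2 system, cytochrome P450 enzymes, aldo-keto and carbonyl reductases, hydrolases and conjugating enzymes, and 111 of the 7320 genes in the deposited table fit. All 111 are protein coding, and 331 protein-coding symbols of the GENCODE M21 annotation fit the same pattern. The remaining genes were not analysed here. RNA was measured in untreated tumorspheres, which are clusters of cells grown in suspension, here for 5 days in PromoCell XF medium, from 2 related mouse ovarian cancer lines.

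ID8 is a clonal line of C57Bl6 ovarian epithelial cells that became immortal without an introduced oncogene. KMF, also called ID8-IP, was recovered from ascites of mice carrying ID8 tumors and was expanded without anchorage, so it descends from ID8. Each line had 3 libraries, made at passages 23, 24 and 35 for ID8 replicates 1 to 3 and at passages 14, 17 and 22 for KMF replicates 1 to 3. Every ID8 passage was above every KMF passage, and the part of passage in the differences was not tested. Each line is 1 isolate, and p-values measure the spread between RNA samples described as independent, not between isolates. Libraries held 23108407 to 33212313 fragments on genes. Of the defining markers of ovarian surface epithelium, 9 of 15 were in the table. Wt1 (94.8 to 118 FPKM in ID8 and 63.6 to 90.0 in KMF) and Gata4 were high in both lines. Of the 8 fitted markers, 1 was higher (Msln) and 7 were lower in KMF, 6 of these by at least 2-fold. The median log2 fold change of the 8 was -1.95. Upk3b had a mean of 25.3 FPKM in ID8 and 1.7 FPKM in KMF (-3.88 ± 0.57). Cdh1 had 8.61 and 0.726 FPKM (-3.55 ± 0.35), and Epcam (-2.43 ± 0.37) and Krt7 (-2.55 ± 0.39) were lower too. In ID8 alone, 3 of the 9 listed markers were above 1 FPKM. In such bulk RNA, fewer cells with a transcript and less of it per cell cannot be told apart. Of 6 markers of fibroblast and mesothelial stroma, 4 were in the table (Col1a1, Col3a1, Dcn and Pdgfra), and KMF had less of each, by at least 2-fold and with a call (median log2 fold change -2.43). Their summed level was 77.3 to 107 FPKM in ID8 and 13.5 to 25.9 FPKM in KMF, so these markers moved in the same direction as most of the genes described below, and their part in those results was not tested. Of 4 endothelial markers, 2 were listed, with a sum of at most 0.174 FPKM in any library. No leukocyte, erythroid or adipocyte marker of the lists was in the table. Since the table lists only genes that the authors called different, a marker at similar levels in both lines would not be in it.

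Cells handle foreign or reactive molecules in steps. Cytochrome P450 enzymes, reductases and hydrolases first expose a reactive group, transferases then attach glutathione, glucuronic acid or sulfate, and ABC transporters pump the product out. Glutathione and thioredoxin also carry the electrons that peroxidases use against hydrogen peroxide and lipid peroxides, and the transcription factor NRF2, held down by KEAP1, drives many of these genes. Platinum drugs enter and leave cells partly on copper carriers and are bound by glutathione, and the study asked how ovarian tumor cells come to resist platinum.

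Levels are given as FPKM, that is, fragments scaled to the gene length and to the fragments of the library on genes, and changes as the log2 fold change of KMF over ID8 with its standard error (SE), from the counts with edgeR. A gene was termed called at a Benjamini-Hochberg adjusted p under 0.05. The table holds only genes that the authors had already called different on these 6 libraries, so 92.9% of the genes fitted were called and a call is no independent evidence.

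Upstream sequences are shown for 6 genes around which the results turn, from RefSeq on GRCm38.p6, each the 250 bases before a transcription start, written 5′ to 3′ along the gene. Gsta1 and Gsta2 are neighbours on chromosome 9 whose RNA moved in opposite directions. In an alignment of their upstream bases 184 of 261 positions were identical (70.5%), and capitals mark these. The windows are chr9:78230419-78230668 on the plus strand for Gsta1 and chr9:78347146-78347395 on the minus strand for Gsta2, and the latter lies inside the longer gene that the deposited table lists for Gsta2.
Gsta1: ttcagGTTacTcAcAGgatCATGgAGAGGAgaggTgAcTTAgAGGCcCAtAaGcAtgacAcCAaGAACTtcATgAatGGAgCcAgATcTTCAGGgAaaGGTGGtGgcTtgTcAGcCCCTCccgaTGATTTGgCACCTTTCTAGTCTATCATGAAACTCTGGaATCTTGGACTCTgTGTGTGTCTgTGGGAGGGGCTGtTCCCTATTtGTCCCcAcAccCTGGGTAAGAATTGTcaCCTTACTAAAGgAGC
Gsta2: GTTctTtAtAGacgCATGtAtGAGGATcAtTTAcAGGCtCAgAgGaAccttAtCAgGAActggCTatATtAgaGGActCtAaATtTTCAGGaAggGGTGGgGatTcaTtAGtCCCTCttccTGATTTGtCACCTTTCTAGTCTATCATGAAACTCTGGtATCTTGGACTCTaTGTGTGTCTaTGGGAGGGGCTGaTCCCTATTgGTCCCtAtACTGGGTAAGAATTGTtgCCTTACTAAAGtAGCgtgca

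The next 4 windows belong to a gene of the Gstm cluster, all of whose genes were lower in KMF, and to 3 genes with a match to TGACNNNGC, the core letters of the antioxidant response element through which NRF2 acts. The windows are chr3:108017974-108018223 (minus strand, Gstm1), chr1:21240335-21240584 (plus strand, Gsta3), chr1:65032760-65033009 (minus strand, Akr1cl) and chr3:122245307-122245556 (plus strand, Gclm). Both strands were searched, capitals mark a match, and Gstm1 had none.
Gstm1: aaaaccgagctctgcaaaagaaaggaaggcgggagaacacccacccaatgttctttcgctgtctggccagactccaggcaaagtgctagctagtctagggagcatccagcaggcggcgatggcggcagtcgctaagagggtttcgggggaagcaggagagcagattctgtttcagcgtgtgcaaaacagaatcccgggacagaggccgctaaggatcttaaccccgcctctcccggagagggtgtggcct
Gsta3: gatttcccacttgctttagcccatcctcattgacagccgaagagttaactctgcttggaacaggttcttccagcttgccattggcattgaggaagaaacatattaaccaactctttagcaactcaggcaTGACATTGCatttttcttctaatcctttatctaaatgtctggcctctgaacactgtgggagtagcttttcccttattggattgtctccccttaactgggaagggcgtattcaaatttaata
Akr1cl: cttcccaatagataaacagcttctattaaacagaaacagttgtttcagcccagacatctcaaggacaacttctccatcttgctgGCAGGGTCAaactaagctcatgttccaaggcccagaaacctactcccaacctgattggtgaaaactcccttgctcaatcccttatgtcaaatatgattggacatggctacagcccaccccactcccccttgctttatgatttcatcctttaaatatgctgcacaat
Gclm: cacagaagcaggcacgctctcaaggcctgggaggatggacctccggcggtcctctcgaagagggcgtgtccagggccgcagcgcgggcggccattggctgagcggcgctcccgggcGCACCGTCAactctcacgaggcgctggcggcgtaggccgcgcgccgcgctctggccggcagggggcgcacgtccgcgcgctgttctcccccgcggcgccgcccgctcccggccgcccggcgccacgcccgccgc

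Of the 111 genes, 93 had an upstream window in RefSeq. TGACNNNGC occurred in 12 of these 93 (12.9%), against 11.5% of all 27025 genes with a window. It occurred in 8 of 55 genes called lower (14.5%) and in 2 of 31 called higher (6.45%). Genes with a match included Gclm and Nfe2l2, which were not called, and Gsta3, Gstm5, Gstm7, Mgst1 and Akr1cl, which were lower in KMF. The 2 called higher were Txndc5 and Txndc11. The letters TNGCGTG, the core to which the aryl hydrocarbon receptor binds, occurred in 4 of 93 windows (4.3%), against 4.76% of all genes. One of these was Gsta2. Both shares were near those of all genes, and a match is a description and not a site in use.

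Across the group, RNA was more often lower in KMF. The edgeR fit covered 109 genes and called 102, of which 36 were higher in KMF (45.4% of all fitted genes of the table were called higher) and 66 were lower (47.5% of all fitted genes). A change of at least 2-fold was called for 57 genes (40.5% in the table), 13 higher (18.0% in the table) and 44 lower (22.5% in the table). Over the alternatives, which are described below, this count of 57 ran from 36 to 61. The median log2 fold change was -0.70, against -0.23 over all fitted genes, and the median absolute change was 1.15 against 0.79. The libraries of the lines did not overlap for 103 of the 111 genes, against 96.5% of the whole table and 96.6% of its fitted genes. The 7 fitted genes without a call were Abcb1b, Gclm, Gsta4, Nfe2l2, Sod3, Akr1c14 and Cbr3. The summed level of all 111 genes was 7360 to 8840 FPKM in ID8 and 6940 to 7910 FPKM in KMF, so the sums overlapped although most members differed.

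**Figure D1:**
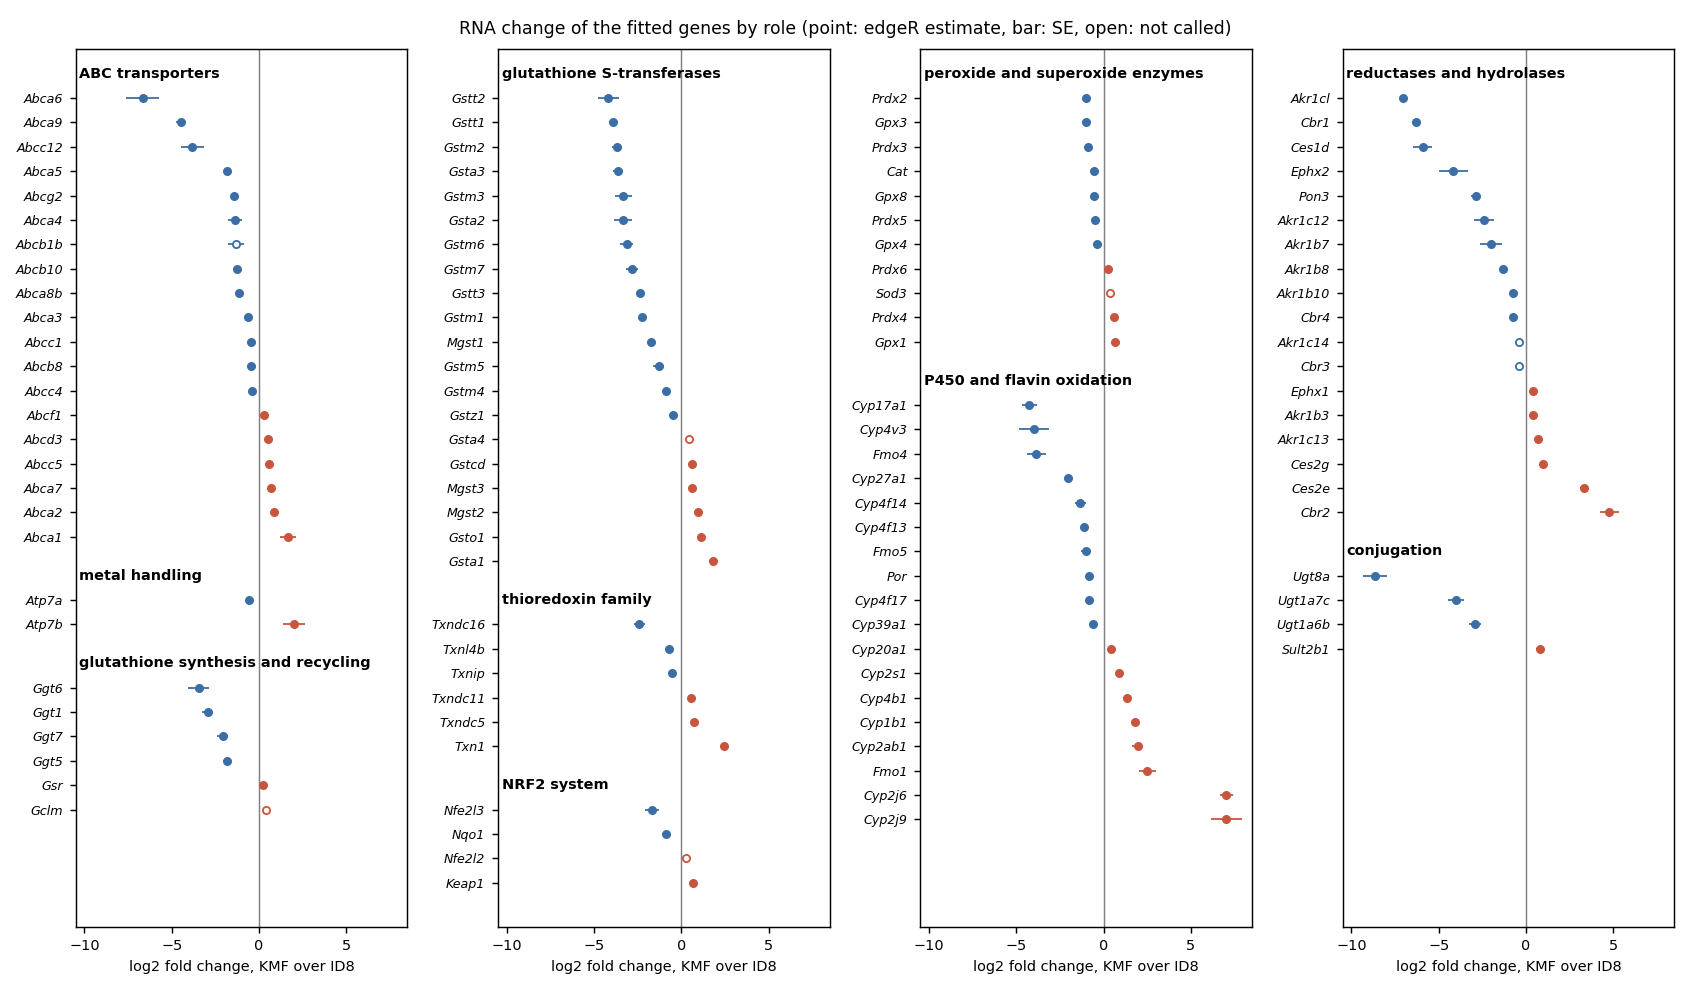
Log2 fold change of KMF over ID8 for the fitted genes reported here, grouped by role, with the SE as a horizontal bar. Filled points are called and open points are not, red is higher and blue lower in KMF, and the glutathione S-transferases sit mostly to the left of 0 with 14 of 20 called lower; the estimates of Abca6, Ugt8a and Cyp2j9, listed at 0 in one line, depend on the prior count of the fit.

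The mean level was above 1 FPKM in both lines for 75 genes and in neither for 18. It was above 1 FPKM in ID8 alone for 13 genes, among them Abca9, Akr1cl, Cbr1, Ces1d and both listed Ugt1a genes. It was above 1 FPKM in KMF alone for 5 genes, which were Abca1, Cyp2j6, Fmo1, Cbr2 and Ces2e. Of the 7320 genes of the table, 5362 were above 1 FPKM in both lines, 597 in ID8 alone and 313 in KMF alone, so most genes of the group, like most of the table, were above this level in both lines.

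Within ID8, replicate 3 (passage 35) was the highest library for 55 of 109 genes with differing values (50.5%), against 37.6% of the whole table. Among the glutathione S-transferases it was highest for 14 of 20. Within KMF, replicate 3 (passage 22) was highest for 45 of 109 genes (41.3%), against 36.6% of the table. The part that passage has in these levels was not tested.

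Among the drug exporters, Abcg2, Abcc1 and Abcc4 were lower in KMF, Abcc5 was higher and Abcb1b was not called. Abcg2, which exports many chemotherapy drugs and dyes from stem-like cells, stood at 15.9, 18.2 and 14.2 FPKM in ID8 and at 6.47, 4.99 and 6.02 FPKM in KMF. All KMF libraries lay below all ID8 libraries, and the log2 fold change was -1.43 ± 0.14 (SE, adjusted p = 0.000206). Abcc1, an exporter of glutathione conjugates, was at 29.0, 27.5 and 27.6 FPKM in ID8 and at 17.6, 19.6 and 21.9 FPKM in KMF (-0.47 ± 0.09, adjusted p = 0.00358). Abcc4, an exporter of nucleotides and conjugates, was also lower (-0.42 ± 0.13, adjusted p = 0.0353), but it was not called when any of ID8 replicates 1, 2 and 3 or KMF replicates 1 and 2 was left out, and its adjusted p then reached 0.102.

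Abcb1b, which encodes one of the mouse P-glycoproteins, was low in every library and varied more within ID8 than between the lines. It had 0.851, 1.52 and 0.422 FPKM in ID8 and 0.508, 0.289 and 0.305 FPKM in KMF, and the ranges overlapped (-1.31 ± 0.48, adjusted p = 0.0719). Without ID8 replicate 3 it was called, and its adjusted p ran from 0.0122 to 0.298 over the alternatives. Abcc5, a cyclic nucleotide exporter, was higher in KMF (0.58 ± 0.16, adjusted p = 0.0254), with 25.2, 19.3 and 27.4 FPKM in ID8 and 27.3, 38.4 and 38.8 FPKM in KMF. Its lowest KMF library lay within the ID8 range, and its call was lost in 7 of 15 alternatives, with adjusted p up to 0.0819.

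The lipid transporters of the ABC family went both ways. The neighbours Abca5, Abca6, Abca8b and Abca9 were all lower in KMF. Abca9 had 8.76, 5.28 and 5.57 FPKM in ID8 and 0.259, 0.339 and 0.259 FPKM in KMF (-4.48 ± 0.25, adjusted p = 2.03e-05). Abca6 had 12, 12 and 14 counts in ID8 and 0 in each KMF library, which makes it at least 4.17-fold lower in KMF against a floor of 3 counts per library. Abca2 (0.87 ± 0.10) and Abca7 (0.68 ± 0.09) were higher in KMF, as was the cholesterol exporter Abca1 (1.68 ± 0.46). Abca1 ranged from 0.681 to 2.79 FPKM within KMF. Its log2 fold change was 1.0 without KMF replicate 1, and it was not called when any ID8 replicate was left out (adjusted p up to 0.0946).

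Abcb10, a mitochondrial carrier needed for heme synthesis, was lower in KMF (-1.26 ± 0.12, adjusted p = 0.000141), as was Abcb8 (-0.47 ± 0.07). Over the 20 ABC genes, 12 were called lower and 7 higher, and the median log2 fold change was -0.54. The 7 called higher became 3 without ID8 replicate 1 and 4 without ID8 replicate 2, ID8 replicate 3 or KMF replicate 3, or under upper quartile scaling. Their summed level was 289 ± 9.14 FPKM in ID8 and 268 ± 14.9 FPKM in KMF (SD, n = 3). Abcf1, included by its symbol, acts in translation and not in transport.

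The copper pumps that also move platinum drugs diverged in direction. Atp7a had 9.24, 8.09 and 8.38 FPKM in ID8 and 4.81, 5.71 and 6.29 FPKM in KMF (-0.57 ± 0.11, adjusted p = 0.00537). Atp7b had 2, 3 and 10 counts in ID8 and 10, 23 and 28 in KMF (2.0 ± 0.63, adjusted p = 0.0382), with a level of at most 0.153 FPKM. Its log2 fold change ran from 1.56 without ID8 replicate 1 to 2.99 without ID8 replicate 3. Its call was lost in 6 of the 12 alternatives that fitted it, among them those without ID8 replicate 1 or 2 or KMF replicate 2 or 3 (adjusted p up to 0.134). Of 13 other listed genes of copper and platinum transport, 5 were in the table, and the fit called 1 higher and 3 lower. Slc31a1, the copper importer through which cisplatin can enter, was lower in KMF, with 25.7 to 35.6 FPKM in ID8 and 15.7 to 18.7 FPKM in KMF (-0.73 ± 0.13, adjusted p = 0.00281). The copper chaperone gene Ccs was lower too (-0.88 ± 0.13).

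Among the 6 genes of glutathione synthesis and recycling, 4 were called lower and 1 higher. Gclm, the modifier subunit of the rate-limiting synthesis enzyme, had 14.0, 15.4 and 18.1 FPKM in ID8 and 16.0, 23.0 and 21.7 FPKM in KMF, with overlapping ranges (0.39 ± 0.15, adjusted p = 0.0761). It was called without ID8 replicate 3 or without KMF replicate 1, and its adjusted p ran from 0.0118 to 0.262 over the alternatives. Gsr, which regenerates reduced glutathione, was at 47.8 to 50.8 FPKM in ID8 and at 54.4 to 61.4 FPKM in KMF (0.24 ± 0.07, adjusted p = 0.0303), and 10 of 15 alternatives did not call it, among them those without ID8 replicate 1, 2 or 3 or KMF replicate 3, with adjusted p up to 0.264. All 4 listed genes of the gamma-glutamyltransferase family, whose best known member GGT1 cleaves glutathione outside the cell, were lower in KMF, with a median of -2.51.

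Ggt5, the most abundant of them, had 9.83, 6.59 and 10.6 FPKM in ID8 and 1.95, 2.22 and 3.14 FPKM in KMF (-1.84 ± 0.23, adjusted p = 0.00052). Ggt1 was below 1.2 FPKM everywhere and was lower in KMF (-2.94 ± 0.33). When at least 10 counts in every library were required, only 1 of the 4 could be fitted, and it was called lower. Of 21 further listed genes of cysteine and glutathione supply and use, 11 were listed, of which 7 were called lower and 4 higher. Chac1 (0.72 ± 0.19) and Chac2 (0.69 ± 0.12), which degrade glutathione inside the cell, were higher in KMF. Oplah, the oxoprolinase of the same cycle, was lower (-1.75 ± 0.11), and Cth, which makes cysteine from cystathionine, had 108, 62 and 35 counts in ID8 and 3, 1 and 2 in KMF, a ratio of 34.4 in favour of ID8 (exact 95% counting interval 15.6 to 94.9).

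The glutathione S-transferases, which attach glutathione to reactive compounds, held the most abundant RNA of the group in each line. Of the 20 genes, 14 were called lower and 5 higher, and their median log2 fold change was -1.98. All 7 Gstm genes were lower in KMF (median -2.85), as were all 3 listed Gstt genes (median -3.93). Across the alternatives, 6 or 7 Gstm genes were called lower and none higher, and 6 was the count where only 6 could be fitted.

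Gstm1 had 985, 860 and 1240 FPKM in ID8 and 180, 214 and 245 FPKM in KMF (-2.23 ± 0.16, adjusted p = 4.49e-05). Gstm2 had 604, 467 and 927 FPKM in ID8 and 46.7, 39.1 and 67.1 FPKM in KMF (-3.66 ± 0.29, adjusted p = 7.38e-05). The ranges lay far apart for both genes, and ID8 replicate 3 was the highest library in each case. Gstm4 (-0.85 ± 0.20) and Gstm5 (-1.30 ± 0.31), which lie at the ends of the cluster, had smaller estimates, a difference that was not tested. Gstm3 had 22, 17 and 16 counts in ID8 and 2, 2 and 1 in KMF, a ratio of 11.1 in favour of ID8 with an exact 95% counting interval of 4.47 to 35.5.

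**Figure D2:**
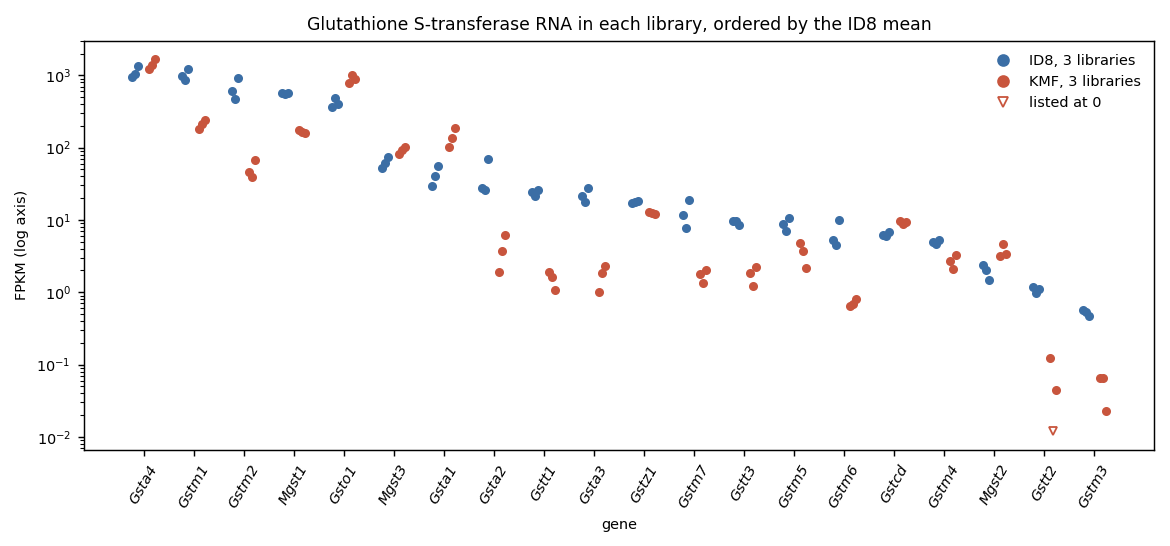
FPKM on a log axis of 20 glutathione S-transferase genes in each library, ordered by the ID8 mean, with ID8 in blue and KMF in red (replicates 1 to 3 from left to right). Open triangles mark a library listed at 0, and among the 5 most abundant genes Gstm1, Gstm2 and Mgst1 fall in KMF while Gsto1 rises and Gsta4 overlaps.

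The alpha class did not move as one. Gsta4, which conjugates the lipid peroxidation product 4-hydroxynonenal, was the most abundant transcript of the group in KMF, with 942, 1030 and 1350 FPKM in ID8 and 1240, 1410 and 1670 FPKM in KMF. Its ranges overlapped and it was not called (0.42 ± 0.15, adjusted p = 0.0684), but without ID8 replicate 3 or KMF replicate 1 it was, and its adjusted p ran from 0.0111 to 0.238 over the alternatives. Gsta1 had 29.4, 40.0 and 55.2 FPKM in ID8 and 102, 138 and 190 FPKM in KMF (1.83 ± 0.27, adjusted p = 0.00136). Gsta2 had 27.6, 26.3 and 70.1 FPKM in ID8 and 1.90, 3.78 and 6.16 FPKM in KMF (-3.32 ± 0.51, adjusted p = 0.00157), or -2.72 without ID8 replicate 3. Gsta1 and Gsta2 thus had similar mean levels in ID8, 41.5 and 41.4 FPKM, and separated in KMF.

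Reads of these neighbours can be hard to assign. In 73.7% of the 150-base windows of Gsta1 the bases also occurred in another gene (Gm3776, Gsta2 or Gm10639), and in Gsta2 the share was 26.8%, so their levels are uncertain. Gm10639, which lies between them, was higher in KMF as well (log2 fold change 2.13). Gsta3, on chromosome 1, had 18.0 to 27.6 FPKM in ID8 and 1.02 to 2.28 FPKM in KMF (-3.64 ± 0.28, adjusted p = 6.63e-05).

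Gsto1, an omega-class enzyme that reduces rather than conjugates, was higher in KMF, with 370, 487 and 406 FPKM in ID8 and 791, 1000 and 903 FPKM in KMF (1.13 ± 0.13, adjusted p = 0.000436). Mgst1, a membrane-bound transferase and peroxidase, was lower, with 579, 550 and 572 FPKM in ID8 and 175, 163 and 162 FPKM in KMF (-1.73 ± 0.07, adjusted p = 7.38e-06). Mgst2 (0.96 ± 0.24) and Mgst3 (0.61 ± 0.13) were higher. Gstt1 had 24.3, 21.3 and 25.8 FPKM in ID8 and 1.88, 1.64 and 1.09 FPKM in KMF (-3.93 ± 0.22, adjusted p = 1.82e-05). Gstp genes were not analysed here.

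Summed over the 19 genes of the Gsta, Gstm, Gstt, Gsto, Gstz and Mgst families, the level was 4050 ± 674 FPKM in ID8 and 3040 ± 364 FPKM in KMF (SD, n = 3), a difference for which no test was made. The Gstm sum was 1350 to 2210 FPKM in ID8 and 237 to 320 FPKM in KMF. Gsta4 made up 27.3% ± 1.6 of the 19-gene sum in ID8 and 47.3% ± 1.98 in KMF, and Gsto1 10.6% ± 2.59 and 29.7% ± 2.81. Gstm1 went from 25.4% ± 1.46 to 6.99% ± 0.238, and Gstm2 from 16.2% ± 3.16 to 1.67% ± 0.369. Every library showed the make-up of its own line.

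**Figure D3:**
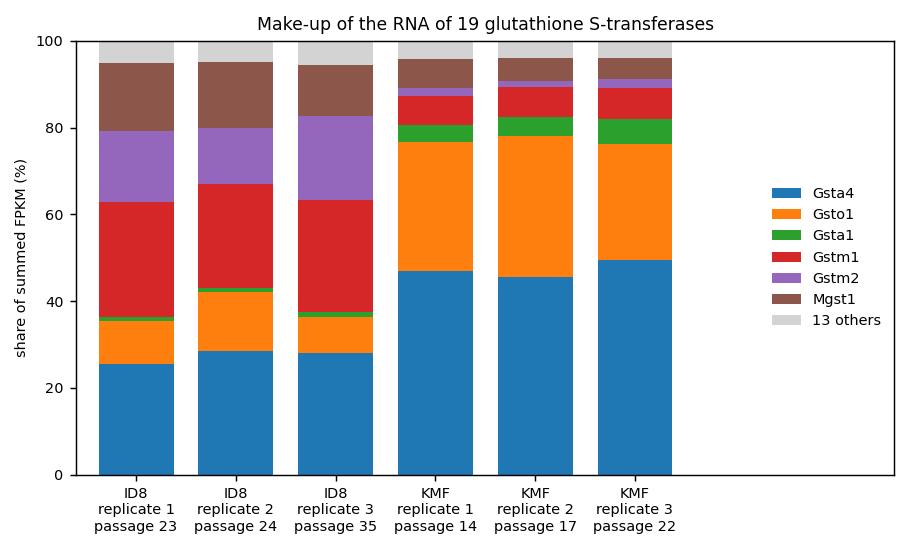
Share in percent of the summed FPKM of 19 glutathione S-transferase genes in each of the 6 libraries, with 6 genes in color and the 13 others in grey. Gsta4 and Gsto1 together take most of each KMF bar, while Gstm1, Gstm2 and Mgst1 together take the larger part of each ID8 bar.

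Neighbouring genes of these families did not always share a direction. The Gstm cluster spans 149.1 kb of chromosome 3 (chr3:107895821-108044894), and within 500 kb of it 7 other listed genes were called higher and 5 lower. Of the other called genes of chromosome 3, 76.9% were higher in KMF. A stretch of chromosome 10 holds Ggt1, Ggt5, Gstt3, Gstt1 and Gstt2, all lower in KMF, and there 8 of 9 listed neighbours were lower too. Of the other called genes of chromosome 10, 41.4% were higher. Of 4 neighbours called near the Abca cluster of chromosome 11, 3 were lower, on a chromosome where 27.4% of the other called genes were higher. Akr1b8, Akr1b10 and Akr1b7 on chromosome 6 were lower while the adjacent Akr1b3 was higher, a call lost in 8 of 15 alternatives. Of 7 listed neighbours there, 6 were called lower and none higher. Of the other called genes of chromosome 6, 33.8% were higher. Akr1b7 had 21, 10 and 35 counts in ID8 and 2, 3 and 11 in KMF, and it was not called without ID8 replicate 1 or 3 or without KMF replicate 1 or 2 (adjusted p up to 0.125).

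**Figure D4:**
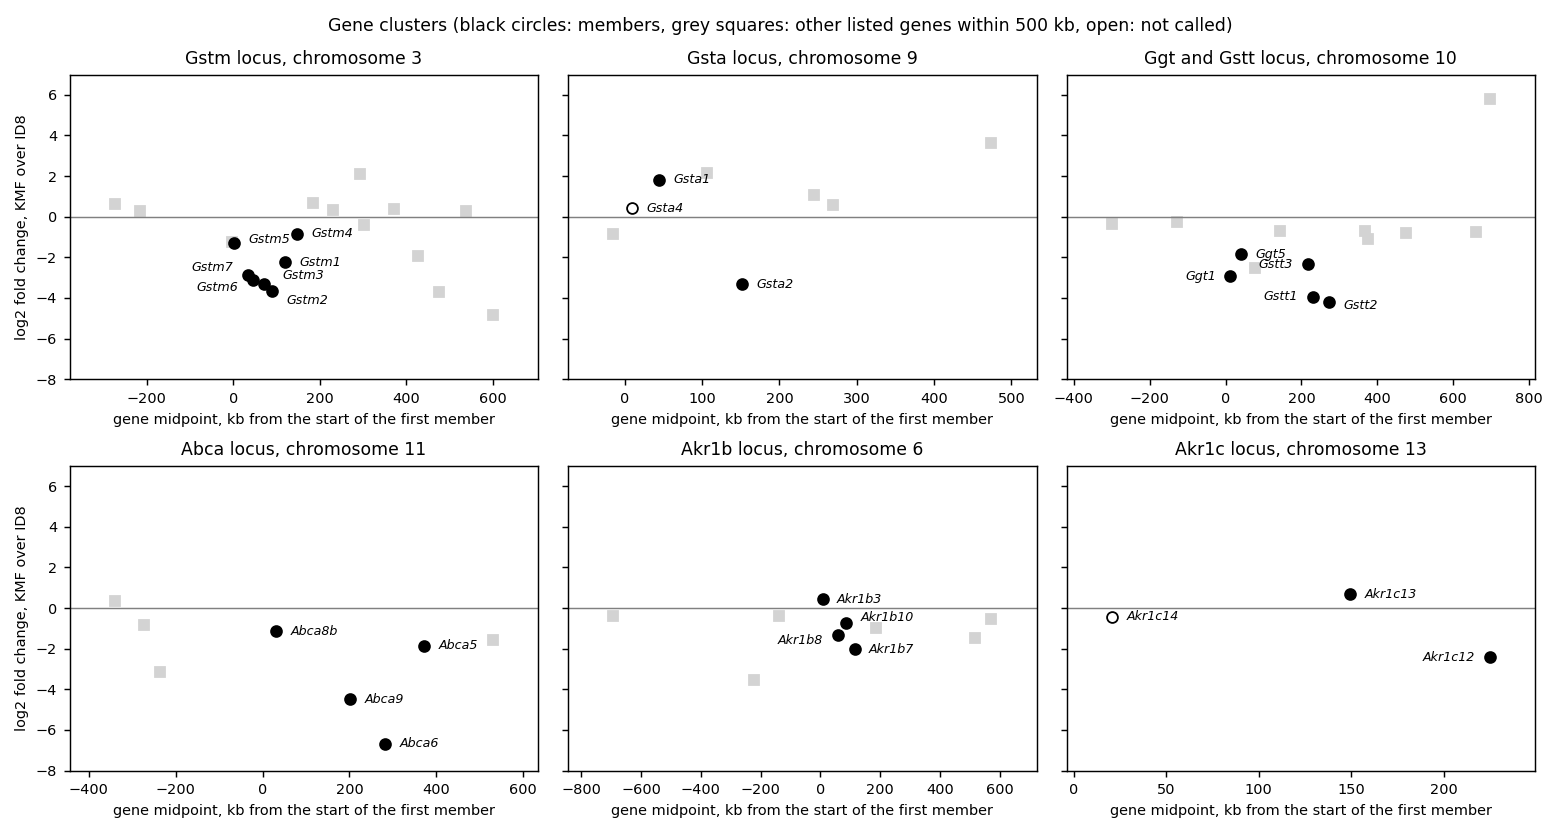
Log2 fold change of KMF over ID8 against the midpoint of each gene in kb from the start of the first member of 6 of the 7 clusters with 3 or more members (that of Abcd3, Abca4 and Gclm is not drawn), with members as black circles and other listed genes within 500 kb as grey squares. Open symbols are not called, and the 7 Gstm genes dip below 0 between neighbours of either sign.

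Among the peroxidases, Prdx2 and Prdx3, the most abundant of the 5 peroxiredoxins in the table, fell and Gpx1 rose. Prdx3, the mitochondrial peroxiredoxin, had 460, 459 and 430 FPKM in ID8 and 235, 237 and 235 FPKM in KMF (-0.89 ± 0.07, adjusted p = 6.68e-05). Prdx2, its cytosolic relative, had 314, 350 and 330 FPKM in ID8 and 173, 142 and 155 FPKM in KMF (-1.04 ± 0.10, adjusted p = 0.000136). Prdx4 of the endoplasmic reticulum was higher (0.58 ± 0.08). Prdx6, which also acts on phospholipid peroxides, had 94.4 to 106 FPKM in ID8 and 114 to 127 FPKM in KMF (0.27 ± 0.08, adjusted p = 0.0281), and its call was lost in 7 of 15 alternatives, among them those without ID8 replicate 1 or 3 or KMF replicate 3, with adjusted p up to 0.205. The 5 listed peroxiredoxins summed to 1000 ± 32.0 FPKM in ID8 and 626 ± 12.4 FPKM in KMF.

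Gpx1, a cytosolic glutathione peroxidase, had 183, 202 and 175 FPKM in ID8 and 292, 285 and 290 FPKM in KMF (0.67 ± 0.08, adjusted p = 0.000468). Gpx4, which removes lipid peroxides from membranes, was lower in KMF (-0.38 ± 0.08, adjusted p = 0.00664), although 36.9% of its 150-base windows occur in a pseudogene. Gpx3 (-0.99 ± 0.25), Gpx8 (-0.54 ± 0.09) and catalase, Cat (-0.56 ± 0.16), were lower as well. Cat was not called without ID8 replicate 3 or without KMF replicate 1 or 2 (adjusted p up to 0.0949), and Gpx3 not without ID8 replicate 1 or 2 or KMF replicate 2 or 3 (up to 0.0654). Sod3, the extracellular superoxide dismutase, was not called (0.34 ± 0.12, adjusted p = 0.0597) except, among others, without ID8 replicate 3. Of the 11 genes of this role, 3 were called higher and 7 lower.

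Thioredoxin rose in KMF while its inhibitor fell. Txn1 had 203, 235 and 206 FPKM in ID8 and 1120, 1100 and 1160 FPKM in KMF, a 5.4-fold difference with little spread in either line (2.43 ± 0.09, adjusted p = 5.43e-06). Txnip, which encodes the inhibitor of thioredoxin, was lower, with 76.4 to 93.6 FPKM in ID8 and 53.1 to 59.3 FPKM in KMF (-0.54 ± 0.09, adjusted p = 0.00235). Txndc5, an oxidoreductase of the endoplasmic reticulum, was higher (0.75 ± 0.09). Of the 6 genes taken by the Txn prefix, 3 were higher and 3 lower, and one of the latter, Txnl4b, is a splicing factor.

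The genes of the NRF2 system did not move in one direction. Nfe2l2, which encodes NRF2, had 117, 130 and 124 FPKM in ID8 and 159, 127 and 151 FPKM in KMF, with overlapping ranges (0.27 ± 0.10, adjusted p = 0.069). Without KMF replicate 2 it was called higher, and its adjusted p ran from 0.0179 to 0.375 over the alternatives. Keap1 was higher in KMF, at 12.9 to 13.3 FPKM in ID8 and 19.1 to 22.1 FPKM in KMF (0.69 ± 0.08, adjusted p = 0.000342). Nqo1, a quinone reductase and textbook NRF2 target, was lower, with 166, 192 and 256 FPKM in ID8 and 80.4, 119 and 124 FPKM in KMF (-0.88 ± 0.20, adjusted p = 0.00926). The related factor Nfe2l3 was lower (-1.67 ± 0.40), and its adjusted p was 0.0502 without KMF replicate 3.

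Of 17 further NRF2 partners and targets, 10 were listed, split into 5 called higher and 5 called lower. Osgin1, a target that restrains growth, was lower (-1.87 ± 0.13), as were Sqstm1 (-0.60 ± 0.08) and the ferritin heavy chain Fth1 (-0.48 ± 0.11). The ferritin light chain Ftl1 (0.55 ± 0.13) and the small MAF partner Maff (1.17 ± 0.20) were higher. Of 11 genes grouped under NADPH supply, 8 were listed, with 4 called lower and 3 higher. The cytosolic isocitrate dehydrogenase Idh1 was lower (-1.11 ± 0.09), as were G6pdx, Me1 and Nnt. The mitochondrial Idh2 was higher (1.04 ± 0.07), as were Tkt and Mthfd2.

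Oxidising enzymes held the largest rises among the fitted genes of the group. Cyp2j6, of a subfamily known for epoxidising arachidonic acid, had 0.207, 0.552 and 0.162 FPKM in ID8 and 40.3, 44.2 and 29.8 FPKM in KMF (7.02 ± 0.37, adjusted p = 1.6e-05), or 7.72 without ID8 replicate 2. Its neighbour Cyp2j9 had 0 counts in each ID8 library and 16, 13 and 19 in KMF, at least 5.29-fold higher. All 4 listed Cyp2 genes were higher in KMF. Cyp1b1, which activates procarcinogens and is induced through the aryl hydrocarbon receptor, had 45.6, 51.9 and 31.7 FPKM in ID8 and 166, 146 and 131 FPKM in KMF (1.81 ± 0.19, adjusted p = 0.000258).

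Of the other P450 genes, Cyp4b1 (1.36 ± 0.28) and Cyp20a1 (0.43 ± 0.10) were higher in KMF, and the rest were lower. Cyp17a1, of steroid hormone synthesis, had 25.0, 22.3 and 47.4 FPKM in ID8 and 0.771, 2.5 and 1.53 FPKM in KMF (-4.26 ± 0.44, adjusted p = 0.000232). Cyp27a1, which hydroxylates sterols, was lower as well (-2.06 ± 0.18), and so were all 3 listed Cyp4f genes. Por, which passes electrons to all microsomal P450 enzymes, was at 50.1 to 55.3 FPKM in ID8 and at 27.9 to 29.5 FPKM in KMF (-0.85 ± 0.07, adjusted p = 0.000106). Of the 14 P450 genes, 7 were higher and 7 lower, and their sum rose from 216 ± 15.9 to 369 ± 9.87 FPKM. Cyp1b1 made up 20.1% ± 5.70 of that sum in ID8 and 40.1% ± 5.79 in KMF.

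Of 16 xenobiotic receptors and their partners, 9 were listed, and the fit called 5 lower and 4 higher. Ahr, the aryl hydrocarbon receptor, was higher in KMF (1.10 ± 0.19), and so was its target Tiparp (0.62 ± 0.12). Its repressor Ahrr had 3.86, 3.35 and 5.61 FPKM in ID8 and only 1, 1 and 2 counts in KMF, a ratio of 435 in favour of ID8 (exact 95% counting interval 170 to 1600). Pparg, a lipid-sensing nuclear receptor, was lower (-3.85 ± 0.25). Many of these enzymes are abundant in liver, and 1 of 3 hepatocyte markers, Alb, was in the table. Alb had 3.74 and 2.88 FPKM in KMF replicates 1 and 2, 0.0147 FPKM in KMF replicate 3 and at most 0.0332 FPKM in ID8. KMF replicate 3 had little Alb. Among the 36 detoxification genes called higher, it was the highest KMF library for 14 and the lowest for 6. It lay above every ID8 library for all 36, but it was part of the fit that called them, so this was largely set by the call. The part of hepatocyte RNA in these results was not tested.

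Among the reductases and hydrolases a few genes were nearly switched between the lines. Cbr1, a carbonyl reductase of anthracyclines and prostaglandins, had 30.4, 31.6 and 31.7 FPKM in ID8 and 0.206, 0.385 and 0.511 FPKM in KMF (-6.31 ± 0.23, adjusted p = 4.87e-06). Akr1cl, of the aldo-keto reductase family, had 49.6, 47.0 and 56.4 FPKM in ID8 and 0.433, 0.491 and 0.256 FPKM in KMF (-7.02 ± 0.19, adjusted p = 1.57e-06). Cbr2 went the other way, from 0.0306, 0.0746 and 0.14 FPKM in ID8 to 1.57, 1.91 and 3.20 FPKM in KMF (4.77 ± 0.54), or 5.39 without ID8 replicate 3. Cbr3, next to Cbr1 on chromosome 16, was not called (-0.42 ± 0.16, adjusted p = 0.0885). It was called in 5 of 15 alternatives, among them that without ID8 replicate 1, and its adjusted p ran from 0.0239 to 0.311.

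The carboxylesterases, which hydrolyse ester drugs, split by subfamily. Ces2g had 72.7, 65.1 and 88.0 FPKM in ID8 and 127, 158 and 139 FPKM in KMF (0.95 ± 0.13, adjusted p = 0.000715), and Ces2e was higher as well (3.34 ± 0.23). Ces1d was lower (-5.93 ± 0.52), or -6.79 without KMF replicate 1. Ces1g, too low to fit, had 18, 8 and 4 counts in ID8 and 1, 1 and 0 in KMF, a ratio of 15.1 with an exact 95% counting interval of 3.84 to 131. With so few counts, the size of this ratio depends on single libraries.

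The epoxide hydrolases also differed. Ephx1, the microsomal form, had 255, 284 and 328 FPKM in ID8 and 311, 373 and 411 FPKM in KMF with overlapping ranges (0.38 ± 0.13, adjusted p = 0.0478), and 9 of 15 alternatives did not call it, with adjusted p up to 0.181. Ephx2, the soluble form, was lower (-4.16 ± 0.85), with 0.67 to 2.55 FPKM in ID8 and at most 0.128 FPKM in KMF. The Ephx2 log2 fold change was -3.44 without ID8 replicate 1 and -3.42 without KMF replicate 3. Pon3, a lactonase, was lower (-2.88 ± 0.27). Akr1b3, the aldose reductase, was higher (0.42 ± 0.12, adjusted p = 0.0285) with overlapping ranges, and its call was lost in 8 of 15 alternatives, with adjusted p up to 0.107. In all, 6 of the 18 fitted genes of this role were called higher and 10 lower. The 6 called higher became 3 without ID8 replicate 1, ID8 replicate 2 or KMF replicate 3, or under upper quartile scaling, as Akr1b3, Akr1c13 and Ephx1 then lost their calls.

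**Figure D5:**
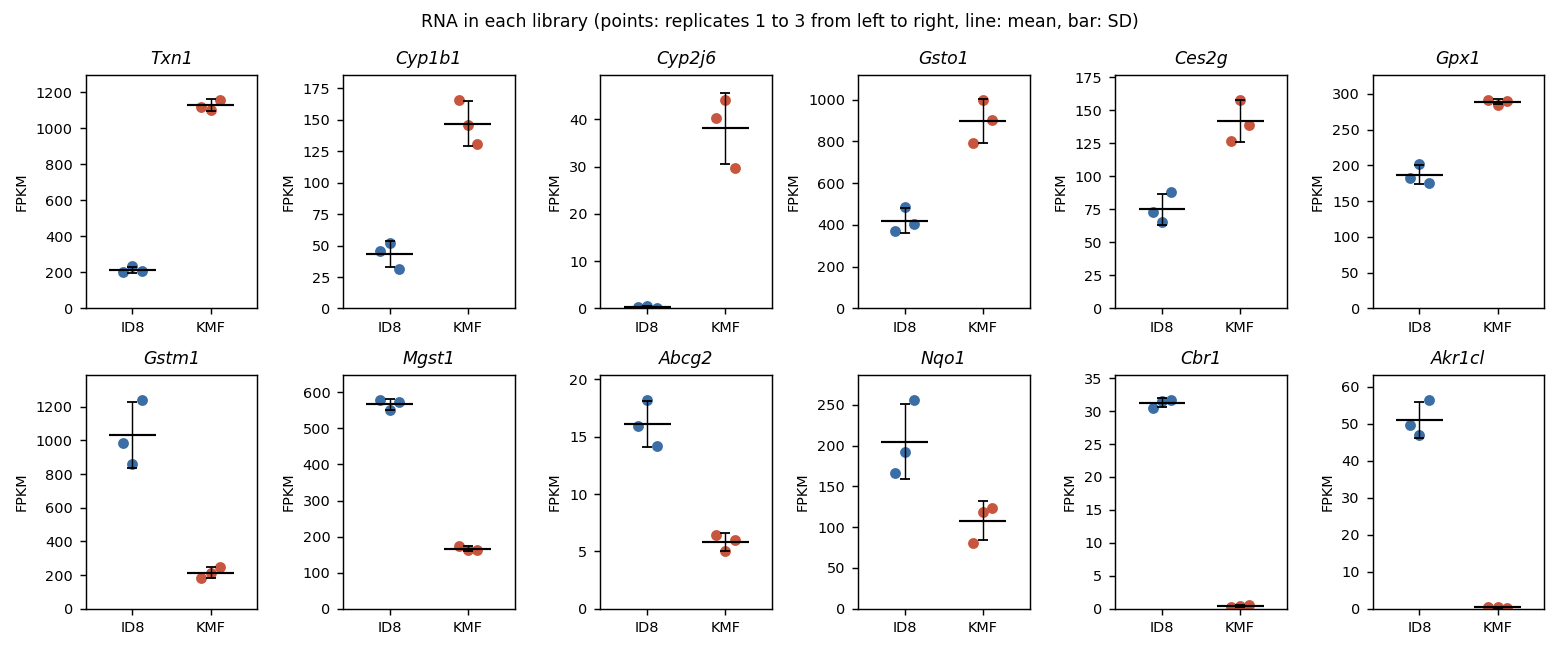
FPKM from 0 in each library for 12 genes, with points for replicates 1 to 3, a line for the mean and a bar for the SD of 3 libraries. The upper 6 genes are higher in KMF and the lower 6 are lower, with no overlap between the lines in any panel.

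Conjugating enzymes other than the glutathione S-transferases were few and low. The glucuronosyltransferases Ugt1a6b (-2.92 ± 0.32) and Ugt1a7c (-4.02 ± 0.46) were lower in KMF, from at most 2.37 FPKM, but they overlap on the same strand and 66.2% and 68.3% of their 150-base windows also occur in other genes, so they cannot be separated. Ugt8a, whose product makes galactosylceramide, had 65, 43 and 46 counts in ID8 and 0 in each KMF library, at least 16.6-fold lower. Sult2b1, a sulfotransferase of sterols, was higher (0.81 ± 0.23, adjusted p = 0.0252), and 6 of 15 alternatives did not call it, among them those without ID8 replicate 1 or 2 or KMF replicate 1 or 3, with adjusted p up to 0.0977. Sult1c2 had 0 counts in each ID8 library and 1, 4 and 25 in KMF, at least 2.82-fold higher. This bound rests on KMF replicate 3, since without it the KMF mean (0.108 CPM) lay below the mean ID8 floor (0.114 CPM) and no bound is left.

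Of 14 listed conjugating enzymes outside the group, 8 were listed, of which 4 were called higher and 3 lower. Aldh3a1, an aldehyde dehydrogenase placed in this list, had 80.8 to 136 FPKM in ID8 and 175 to 252 FPKM in KMF (1.00 ± 0.20, adjusted p = 0.00614). The thiopurine methyltransferase Tpmt was lower (-1.67 ± 0.15). Nnmt, the nicotinamide methyltransferase, was lower (-2.31 ± 0.53), and the lowest library of each line was its replicate 3.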

How the data were processed

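RNA was extracted from tumorspheres of ID8 and KMF cells at day 5, enriched for poly-A RNA and sequenced as paired-end reads by a service provider. The submitters' processing notes name CASAVA 1.8, STAR 2.5, mm10 and DESeq2, whereas the methods of the study name TopHat2. The aligner is therefore uncertain, and the counting tool, the annotation release and the use of strand are not given in the sources used here. Without strand, reads of the 13 genes that overlap a coding gene on the other strand cannot be separated from it. All 111 gene positions overlapped those of GENCODE M21 on GRCm38.

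Read counts in the deposited table are raw, one per gene for each library. FPKM values in it were computed by the authors from these counts, the listed gene length and all fragments that a library had on genes. The authors' p-value and adjusted p-value columns were read only to find how many genes they had tested (17359) and how the table was limited (largest adjusted p 0.0499). No value of them is given for a gene. Columns with the authors' fold change and line means were not used. A total of 14 symbols turned into dates were restored by gene identifier.

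Library totals were recovered from count, length and FPKM. The whole table was then fitted in R 4.3.3 by edgeR 4.0.16 (filterByExpr, TMM, glmQLFit and glmQLFTest, two-sided, no covariate), and p-values were adjusted by Benjamini-Hochberg over 17359 genes. The filter left 6967 genes and 109 of the 111. A floor of 3 counts corresponded to 0.0903 to 0.13 CPM, and floors and intervals cover counting error only, since the reads carried no molecular identifiers. Replicates differed by more than counting noise in every case (chi-square per degree of freedom at least 19.3). Alternatives used DESeq2 1.42.0, limma 3.58.1 on log2(FPKM + 1) and log2(FPKM + 0.1), other scalings and filters, a replicate block, and each library left out. The fit was first tested on simulated data. A stricter condition, on the share of all 2-fold changes recovered, was not met, and it was replaced by conditions on false calls, bias and recovery among well expressed genes, with no change to the fit. Sequences were searched and figures drawn with Python 3.11.15, pandas 2.3.3 and matplotlib 3.10.9.

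The members, roles, lists and the rule for named genes were chosen with earlier results of these data known. The rule names 60 genes with well known roles where listed, the 3 largest called changes of each role above 1 FPKM, and genes with a line at 3 counts or fewer, which gave 63 genes. Other members named, the families and sums, the clusters (genes under 300 kb apart), both motifs and the 150-base windows were chosen after their values were seen. A gene of the group is not reported here by name, although the counts include it.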

Additional observations from a re-analysis of the deposited data

How the results depend on the processing

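The results were recomputed under 15 other settings. Over 1582 gene values none reversed its direction, 1442 kept their side of the threshold, 116 lost and 24 gained a call, and 28 genes changed side in at least 1 setting. The median log2 fold change of the genes was -0.56 when 10 or more counts were required in each library, -0.81 under upper quartile scaling, -0.54 with limma on log2(FPKM + 1) and -0.58 with limma on log2(FPKM + 0.1). Under limma on log2(FPKM + 1), which understates changes of low genes, 36 genes were called with at least 2-fold change. Upper quartile scaling moved the median of all genes by -0.11 and gave 72.3% of called members lower, against 64.7%. Without one library each, 25 to 35 members were called higher, 59 to 63 lower and 54 to 61 with at least 2-fold change, the median was -0.75 to -0.64, and 5189 to 5907 genes of the table were called. With the replicate block, 33 members were higher, 65 lower and 56 at least 2-fold, the median was -0.70, and 5720 were the genes called over the whole table. The correlations of deviations of same-numbered libraries were 0.0737, -0.0876 and 0.108, so the numbers do not pair the samples. With a threshold of 2 FPKM, 65 members passed in both lines, 14 in ID8 alone and 5 in KMF alone. Low counts limit Atp7b, Gstm3, Ces1g, Sult1c2 and other genes near the floor of 3 counts. The causes of these shifts were not tested.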
